A study of Mus musculus with 8 samples.

Results

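The genes described here encode molecular chaperones and folding helpers: the heat shock protein families, the DnaJ proteins and the FKBP immunophilins of the mouse hippocampus. They were chosen by symbol from the deposited expression table: symbols starting with Hspa, Hspb, Hspd, Hspe, Hsph or Hsp9, with Dnaja, Dnajb or Dnajc and a digit, or with Fkbp and a digit, Fkbp5 excepted. This gave 86 of 56575 features, of which 24338 carry a symbol. By family they were 3 HSP90 genes, 13 HSP70 and HSP110 features, the 2 mitochondrial chaperonin genes, 7 small heat shock protein genes, 4 DNAJA, 13 DNAJB, 28 DNAJC and 13 FKBP genes, and 3 genes with an Hsp symbol that belong to none of these families. Hspa1a and Hspa1b, near-identical neighbours, are a single feature in the table.

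The study compared hippocampi of wild-type mice (WT) with those of Slm2KO mice, all C57BL/6 and 8 weeks old, with 4 RNA-seq libraries in each group. SLM2 is a splicing regulator of the STAR family encoded by Khdrbs3. The sources used here do not give how the knockout allele was made, or whether the control animals were littermates. The labels do not say that each library came from a different animal. Both groups held libraries with and without Y-linked reads (below), so the libraries of a group cannot all come from the same animal. How many animals there were is not known. The p-values therefore refer to the spread among these 8 samples, which may be partly technical.

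Chaperones bind unfolded or partly made proteins and keep them from aggregating. HSP70 proteins do this in cycles of ATP hydrolysis that DnaJ proteins start and nucleotide exchange factors such as HSP110 end, and HSP90 takes over many of their clients at a later step. Small heat shock proteins hold unfolding clients without ATP, and FKBPs speed the turning of proline bonds. In neurons the HSC70 protein also strips clathrin from synaptic vesicles, together with the DnaJ protein auxilin, and DnaJ cysteine string protein guards the fusion machinery.

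The libraries held 104020058 to 125985224 reads, and the chaperone genes took 1.07% to 1.16% of them. Values are normalised read counts, the reads divided by a size factor for each library (0.928 to 1.11), and are not divided by gene length. For Khdrbs3 itself the Slm2KO libraries stood at 29749 ± 3040 (SD, n = 4) and those of WT at 22051 ± 2387. Every Slm2KO library was above every WT library. A loss of reads over the whole targeted gene was thus not seen and gives no check of the labels. The deleted part was not analysed here. All 12 hippocampal neuron markers were present, with summed values of 453343 to 541969 in WT and 393547 to 560084 in Slm2KO. All 14 choroid plexus markers were present too, and their sum differed widely within both groups, from 347345 to 2474121 in WT and from 528609 to 3136884 in Slm2KO. Y-linked genes had summed values of 17979 to 19517 in WT 4, Slm2KO 3 and Slm2KO 4, and of at most 3.62 in the other libraries. The sample numbers in the labels fall into a lower series (WT 1, WT 2, Slm2KO 1 and Slm2KO 2) and a higher series (the other 4 libraries). Log2 differences within the lower and then the higher series are given beside the pooled ones where a gene's libraries are described. In the higher series both Slm2KO libraries had Y-linked reads, and of WT only WT 4 did. Genotype and the presence of Y-linked reads therefore cannot be fully told apart in its differences.

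Some of these genes are known for stress elements in their promoters, and some of the promoters searched held the letters of such elements. The heat shock element is a run of inverted GAA units bound by heat shock factors, and the ER stress response element is bound by factors of the unfolded protein response. Promoters from RefSeq (GRCm38.p6, 250 bases before to 50 after the start) were searched on both strands for GAANNTTC and TTCNNGAA (an element of 2 units), for GAANNTTCNNGAA and TTCNNGAANNTTC (3 units, which contain the 2-unit letters), and for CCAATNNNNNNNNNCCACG. The 3-unit letters were in 198 of all 32851 promoters (0.603%), and among the chaperone genes in 6 of 94 promoters, those of Dnajb6, Hspd1, Hspe1 and Hsph1. These 6 are not independent. Hspd1 and Hspe1 share the same matched bases, read from opposite strands, and the overlapping promoters of Hsph1 hold the same match, after the start. The ER letters were in 39 of all promoters (0.119%), and among the chaperone genes in those of Dnajc3, Hsp90b1 and Hspa5. The 2-unit letters were in 4946 of all promoters (15.1%) and in 20 of the 94. A match is a description of the letters, not evidence of binding, and 72 of the chaperone genes had an entry in the RefSeq table. The bases before the start are shown for 5 genes: Hspe1, whose promoter lies between it and Hspd1, Hspa5 and Hsp90b1, which share the ER letters, and the pair Hspa1a and Hspa1b. Capitals mark the 2-unit heat shock letters in Hspe1 (3 overlapping matches, which together make up 2 of the 3-unit matches), Hspa1a and Hspa1b, and the ER letters in Hspa5 and Hsp90b1, where the second match of Hsp90b1 is on the opposite strand. The stretches are Hspe1 at chr1:55087898-55088147 (plus strand), Hspa5 at chr2:34771840-34772089 (plus), Hsp90b1 at chr10:86705445-86705694 (minus), Hspa1a at chr17:34972157-34972406 (minus) and Hspa1b at chr17:34959239-34959488 (minus).
Hspe1: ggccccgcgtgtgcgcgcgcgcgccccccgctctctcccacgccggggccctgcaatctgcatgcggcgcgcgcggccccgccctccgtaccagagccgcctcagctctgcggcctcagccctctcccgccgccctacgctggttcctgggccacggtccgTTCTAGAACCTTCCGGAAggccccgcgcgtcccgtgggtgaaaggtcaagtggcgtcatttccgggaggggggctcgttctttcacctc
Hspa5: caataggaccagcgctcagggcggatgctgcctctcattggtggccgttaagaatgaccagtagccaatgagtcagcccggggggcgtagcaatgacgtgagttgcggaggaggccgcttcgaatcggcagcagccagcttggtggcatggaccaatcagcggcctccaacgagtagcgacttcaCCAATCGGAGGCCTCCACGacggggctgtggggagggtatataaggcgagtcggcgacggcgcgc
Hsp90b1: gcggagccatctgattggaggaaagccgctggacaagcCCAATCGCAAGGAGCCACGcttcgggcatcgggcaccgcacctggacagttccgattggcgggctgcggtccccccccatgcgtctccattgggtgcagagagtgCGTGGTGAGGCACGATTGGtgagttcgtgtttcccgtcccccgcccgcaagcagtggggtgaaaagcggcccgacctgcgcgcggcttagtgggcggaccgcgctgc
Hspa1a: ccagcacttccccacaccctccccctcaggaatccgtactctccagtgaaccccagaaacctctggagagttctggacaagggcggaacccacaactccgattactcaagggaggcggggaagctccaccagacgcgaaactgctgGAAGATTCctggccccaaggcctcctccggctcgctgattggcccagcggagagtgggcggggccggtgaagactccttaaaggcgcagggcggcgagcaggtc
Hspa1b: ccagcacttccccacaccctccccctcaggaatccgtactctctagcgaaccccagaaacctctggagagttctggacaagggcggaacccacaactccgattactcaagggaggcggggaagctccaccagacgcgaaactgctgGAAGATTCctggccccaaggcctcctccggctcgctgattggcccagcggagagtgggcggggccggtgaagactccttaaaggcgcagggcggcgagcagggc

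In Hspe1 the marked letters run from 89 to 72 bases before the start, and in Hspa5 from 65 to 47. Those of Hsp90b1 run from 212 to 194 and from 107 to 89. The stretches of Hspa1a and Hspa1b differ at 3 of 250 bases, and both carry the marked letters 104 to 97 bases before the start.

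Of the 86 features, 80 had a mean value of at least 10 and were tested. The 6 others were Dnajb7, Dnajb8, Dnajc5b, Dnajc5g, Fkbp6 and Hspb9, with mean values of 0 to 9.34. Dnajb8 had no read in any library, which allows up to 3 reads in each. To set genes side by side, values were divided by the length of the gene's exons in GENCODE vM21, which 85 of the 86 features have (Hspa14 has none); which lengths the authors' counting used is not known here.

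Per kilobase, the constitutive cytosolic HSP90, Hsp90ab1, stood first with 110620, and alone made up 25.9% of the summed values of the chaperone genes. Hspa8, which encodes HSC70, followed with 41856 per kb (14.1% of the summed values), and Fkbp1a, which encodes the FK506-binding protein FKBP12, with 25320 per kb. Each of these 3 levels lay apart from the next by more than the spread between libraries, at 112238 ± 7120, 42398 ± 3636 and 24769 ± 1394 per kb in WT (SD, n = 4). The ER paralogue Hsp90b1 (GRP94, 18754 ± 1838 per kb in WT) and the stress-inducible cytosolic Hsp90aa1 (16342 ± 1091) came next. They lay more than 1 SD of Hsp90b1 apart in WT, but less than that in Slm2KO (18239 ± 2084 and 16733 ± 642). Of the 50-base stretches of Hspa8 and Hsp90aa1, 39.4% and 47.5% also occur in other genes, so their levels may include or lack shared reads. Hspa9, mitochondrial HSP70, had 7955 per kb. The following 6 genes, Dnaja2, Fkbp8, Hspa5, Hspa4, Dnajc6 and Hsph1, ranged only from 6455 down to 5929 per kb, and neighbours in that order did not differ beyond their spread. Small heat shock proteins were low, with Hspb8 highest at 2149 per kb.

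**Figure D1:**
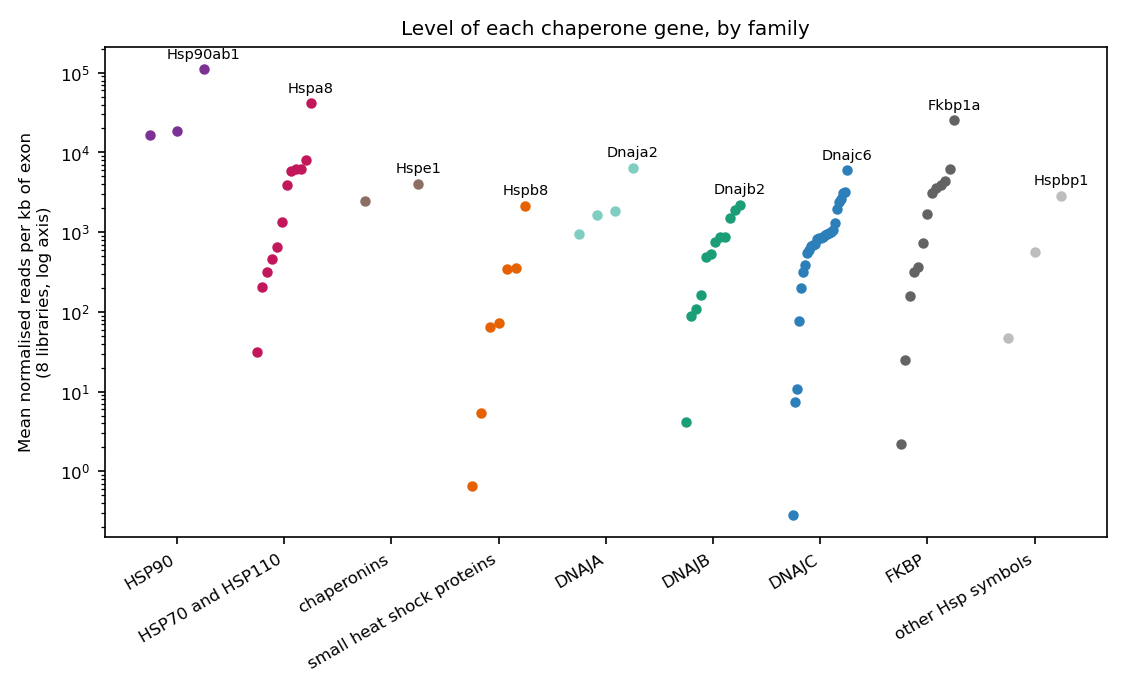
Level of each chaperone gene by family, as the mean normalised read count of the 8 libraries per kilobase of exon, on a log axis; each point is a gene and the highest of each family is named; Dnajb8, at 0, and Hspa14, without a length, are not drawn. Hsp90ab1 stands highest at 110620 per kb, and the small heat shock proteins reach 2149.

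The question of the comparison was whether the chaperone genes differed between the genotypes, and no chaperone gene passed the test. Differences are on the log2(value + 1) scale, Slm2KO minus WT, which understates those of low genes. Of the 80 tested, 0 had an adjusted p under 0.05 in limma (Benjamini-Hochberg over 25667 features), where 0.0039% of all features did, a single feature, Khdrbs2. By edgeR's quasi-likelihood test the count was also 0, as it was by DESeq2, which gave no adjusted p to 4 of the 80 (Dnajc22, Hspb2, Hspb3 and Hspb7). Khdrbs2 was higher in Slm2KO without overlap (log2 difference 1.18). Khdrbs3 was higher too (0.43), with an adjusted p of 0.0191 by DESeq2 but none under 0.05 by limma or edgeR. At an unadjusted p under 0.05 there were 3 chaperone genes, all higher in Slm2KO (Fkbp3, Dnajc28 and Dnajb1), against 3.52% of all features, with 1.7% higher and 1.82% lower. By direction alone, 36 were higher and 44 lower in Slm2KO, where 46.1% of all features were higher. The median log2 difference was -0.01, and that of all features tested was -0.01. Within the lower number series 54 of the 80 were higher in Slm2KO, and within the higher series 31 were. The median change from the lower to the higher series was -0.08 for the chaperone genes and -0.02 for all features. The shares of all features higher within each series are not given here, and the cause was not tested.

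The data also bound how large a difference could be. For 72 of the 80 genes the 95% interval of the difference lay within 1.5-fold in either direction, against 65.7% of all features, and for 66 it lay within 1.3-fold, against 49.9%. The chaperone genes are mostly abundant, and at a mean of at least 1000 the shares were close: 64 of 65 chaperone genes and 97.4% of all such features lay within 1.5-fold, and 62 of 65 and 91.0% within 1.3-fold. The groups did not overlap for 4 genes: all 4 Slm2KO libraries were above all 4 WT libraries for Fkbp3, Dnajc28 and Dnajb4, and below them for Dnajb2. Over all features this was so for 2.5% (1.33% above and 1.17% below). With 4 libraries against 4 the two-sided exact permutation test cannot give a p below 0.0286.

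**Figure D2:**
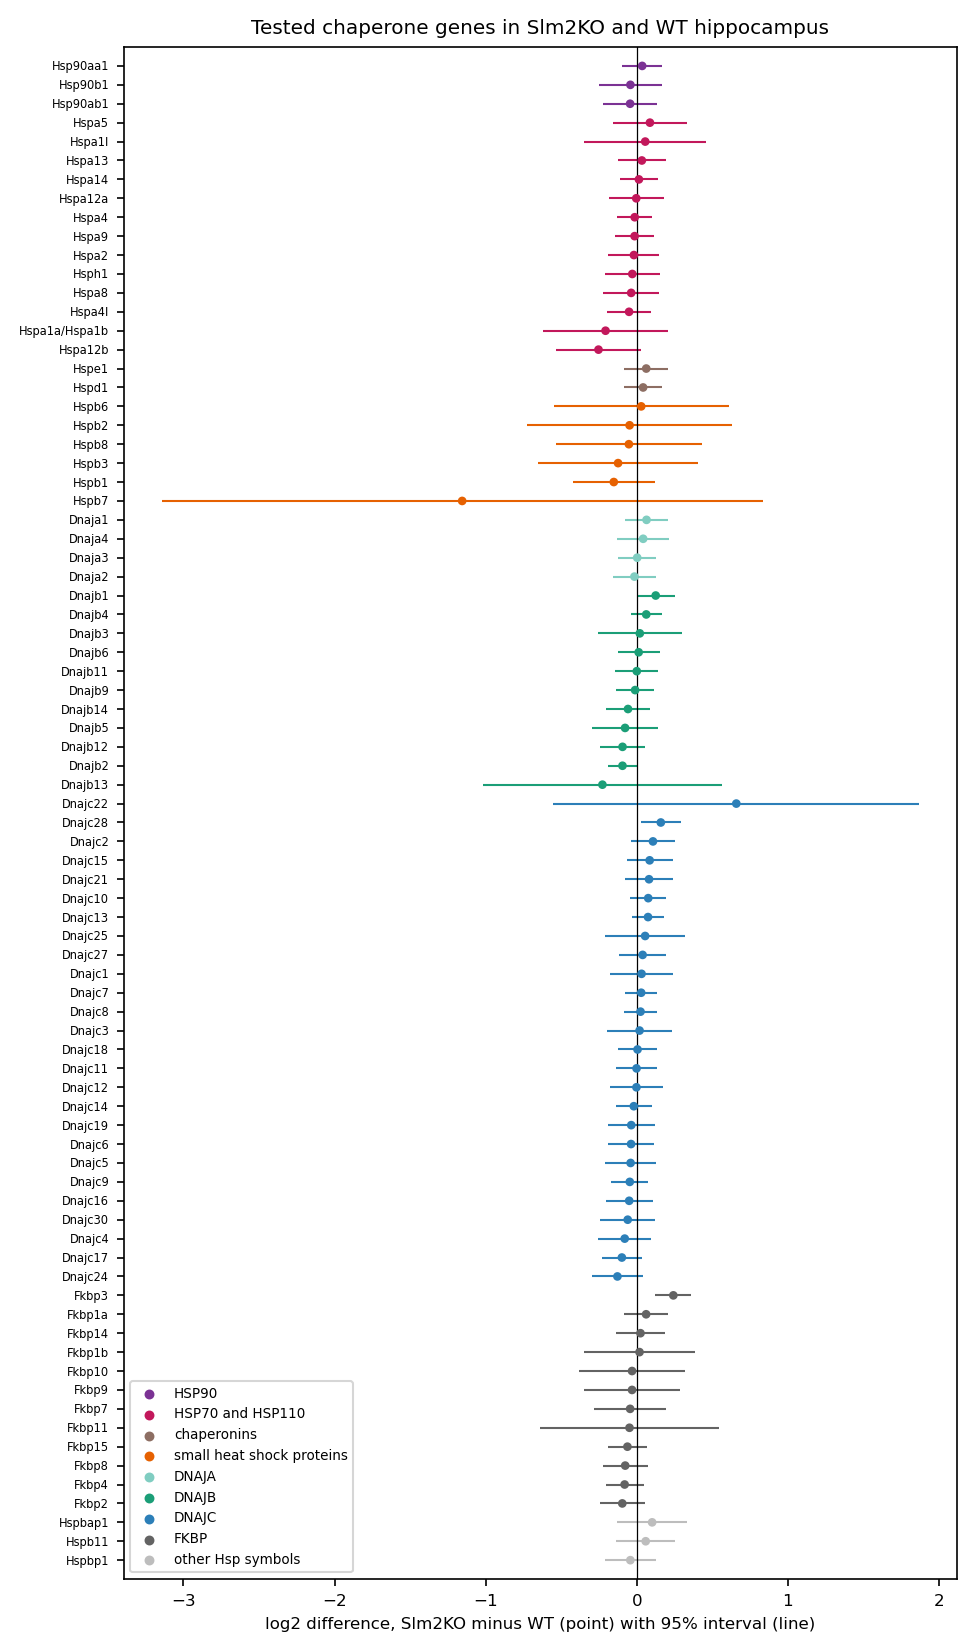
Log2 difference of Slm2KO minus WT for the 80 tested chaperone genes, by family, with 95% intervals from the limma fit on log2(value + 1). The intervals of Fkbp3 (0.24), Dnajc28 (0.16) and Dnajb1 (0.13) leave out 0, and Hspb7 and Dnajc22 have the widest.

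Among the HSP90 genes, Hsp90ab1 had values of 327819, 359544, 311301 and 347739 in WT 1 to 4 and of 334704, 354412, 330516 and 287956 in Slm2KO 1 to 4. The groups overlapped, with Slm2KO 4 the lowest library and WT 3 the lowest of WT. These 2 lowest libraries, Slm2KO 4 and WT 3, also had the lowest sums of the hippocampal neuron markers in their groups (393547 and 453343). Their choroid plexus sums were the highest of their groups (3136884 and 2474121). The part of either in the values was not tested. The log2 difference was -0.04 (SE 0.080, 0.858 to 1.10-fold; 0.00 and -0.09 in the lower and higher series). Hsp90aa1 differed by 0.04 (SE 0.060, 0.934 to 1.12-fold; 0.09 and -0.02 by series), but 47.5% of its 50-base stretches also occur in other genes, chiefly pseudogenes, so its reads may be shared. Hsp90b1, the ER member, differed by -0.04 (SE 0.094; 0.02 and -0.11 by series).

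The HSP70 and HSP110 features numbered 13, of which 4 were higher and 9 lower in Slm2KO, with 0 at an unadjusted p under 0.05. Hspa8 had values of 160067, 182883, 193210 and 193251 in WT and 165181, 199222, 169329 and 177035 in Slm2KO, a log2 difference of -0.04 (SE 0.083; 0.08 and -0.16 by series). Of its 50-base stretches, 39.4% also occur in other genes. Hsph1, the nucleotide exchange factor HSP110, was at 37572, 45168, 44906 and 46518 in WT and at 40418, 48018, 41526 and 40514 in Slm2KO (log2 difference -0.03, SE 0.082; 0.10 and -0.16 by series). In both of these genes WT 1 was the lowest library and Slm2KO 2 the highest. Hspa9 varied little, from 33765 to 35858 in WT and from 30988 to 35914 in Slm2KO.

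Hspa1a and Hspa1b encode the classical inducible HSP70, and their joint feature (chr17:34956432-34972340) was among the 10 most variable of the chaperone genes. Its values were 2552, 3366, 2539 and 2764 in WT and 3119, 3123, 1869 and 1867 in Slm2KO. Slm2KO 3 and 4 were the lowest of all 8 libraries, while Slm2KO 1 and 2 lay within the WT range. The pooled log2 difference was -0.21 (SE 0.187, 0.650 to 1.16-fold; exact permutation p = 0.429, n = 4 per group). Within the lower series of sample numbers it was 0.09 and within the higher series -0.50. The difference between the series, tested as an interaction term in limma over all features and chosen after seeing the data, was -0.59 (SE 0.175; limma adjusted p = 0.973). At an unadjusted p under 0.05 this term held 3 chaperone genes (Hspa1a/Hspa1b, Dnajb5 and Dnajc28), against 3.09% of all features, and 0 chaperone genes or other features (0%) had an adjusted p under 0.05. The libraries with Y-linked reads were WT 4, Slm2KO 3 and Slm2KO 4; the part of that in the result was not tested. Without the libraries of lowest and highest Ttr, WT 2 and Slm2KO 4, the difference was 0.01.

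Hspa12b, an HSP70 relative described mainly in endothelial cells, had the smallest p of the family. It was at 739, 1001, 749 and 838 in WT and at 726, 801, 683 and 580 in Slm2KO, a log2 difference of -0.25 (SE 0.125, 0.692 to 1.02-fold; -0.17 and -0.33 by series; unadjusted limma p = 0.0701, adjusted 1.00; exact permutation p = 0.114). The groups overlapped. Of the 16 endothelial and mural markers, 15 were lower in Slm2KO (median log2 difference -0.19), none past the adjusted threshold, where 53.9% of all features were lower. Other lists were mostly lower too: 9 of 10 meningeal fibroblast markers (median -0.37), 8 of 10 each of the astrocyte, oligodendrocyte and microglia markers and 9 of 12 neuron markers, whereas all 8 blood markers were higher. The blood sum was 14520 to 21993 in WT, 38611 in Slm2KO 2 and 14886 to 20409 in the other Slm2KO libraries. The endothelial and mural sum was 49394 to 64305 in WT and 45823 to 57053 in Slm2KO. The part of those cells in the Hspa12b values was not tested, and in whole tissue fewer cells of a type and less RNA per cell cannot be told apart.

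Hspa5 encodes BiP, the HSP70 of the ER and the classical target of the unfolded protein response. Its values were 23353, 25258, 30450 and 23617 in WT and 23596, 31102, 24669 and 29828 in Slm2KO (log2 difference 0.09, SE 0.110; 0.16 and 0.02 by series). WT 3, Slm2KO 2 and Slm2KO 4 were high, and the groups overlapped. The ER partner Hsp90b1, with which it shares the ER letters above, was at 68509, 71158, 85102 and 77690 in WT and 64336, 78195, 68924 and 82712 in Slm2KO. Across the 8 libraries log2 values of the pair had r = 0.795 (exact permutation p = 0.0313, adjusted over 5 pairs 0.143) and rho = 0.833 (exact p = 0.0154, adjusted 0.0769). With the extreme libraries for Hspa5 (WT 3 and Slm2KO 2) left out, r was 0.719. Of the 19 ER members of the chaperone genes, 9 were higher and 10 lower, with a median of -0.01.

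The chaperonins Hspd1 (HSP60) and Hspe1 (HSP10), which form the folding chamber of the mitochondrial matrix, sit head to head around the promoter shown. Hspd1 was at 5964, 6485, 6420 and 6704 in WT and 6168, 6850, 6595 and 6711 in Slm2KO. Hspe1 was at 5555, 5401, 6195 and 6347 in WT and 5945, 5876, 6410 and 6269 in Slm2KO. Log2 differences were 0.04 (SE 0.056; 0.06 and 0.02 by series) and 0.06 (SE 0.065; 0.11 and 0.02 by series), and both pairs of groups overlapped. Despite the shared promoter region r was 0.482 (exact permutation p = 0.221, adjusted 0.369; rho 0.357, exact p = 0.389, adjusted 0.649), and 0.188 without WT 1 and Slm2KO 1. Of the 50-base stretches of Hspd1, 42.1% also occur elsewhere, and 22.8% of those of Hspe1. The intervals of all 11 mitochondrial chaperone genes lay within 1.3-fold, 5 higher and 6 lower.

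The 3 remaining pairs gave r = 0.706 for Hspa8 and Hsp90aa1 (exact permutation p = 0.0573, adjusted 0.143; rho 0.690, exact p = 0.0694, adjusted 0.173), 0.141 for Hspa1a/Hspa1b and Dnajb1 (p = 0.737, adjusted 0.737; rho 0.0952, p = 0.840, adjusted 0.840) and 0.227 for Hsph1 and Dnajb1 (p = 0.586, adjusted 0.733; rho 0.0952, p = 0.840, adjusted 0.840). Without the 2 libraries farthest from the median of the first gene these became 0.504, 0.461 and -0.763. None of the 5 pairs passed adjustment, and groups of 4 libraries are too small for a correlation within a group or number series. The points of every pair share the depth and the tissue make-up of their library.

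The DNAJA genes, the closest relatives of bacterial DnaJ, differed by -0.02 to 0.06 on the log2 scale, and the intervals of all 4 lay within 1.3-fold. Dnaja2, the highest, was at 18055 to 20688 in WT and 17982 to 20602 in Slm2KO. Dnaja1 was at 14262 to 16462 in WT and 15328 to 17653 in Slm2KO (log2 difference 0.06, SE 0.065, with 0.14 and -0.01 by series). Dnaja4 was at 3067 to 3703 in WT and 3183 to 3777 in Slm2KO (0.04, SE 0.076, with 0.11 and -0.02 by series). Of the exon bases of Dnaja4, 44.1% overlap Wdr61 on the opposite strand, so reads there cannot be assigned to either gene.

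In the DNAJB family, 11 of 13 genes were tested, with 5 higher and 6 lower. Dnajb5 was at 8777 to 9812 in WT and 7047 to 9970 in Slm2KO (log2 difference -0.08, SE 0.099, with 0.14 and -0.30 by series). Dnajb1, the HSP40 partner of inducible HSP70, was at 2567, 2705, 2825 and 2691 in WT and at 3093, 3008, 2846 and 2823 in Slm2KO. Slm2KO 4 was just below WT 3, and the other Slm2KO libraries were above all WT libraries. The log2 difference was 0.13 (SE 0.056, 1.00 to 1.19-fold; unadjusted limma p = 0.0499, adjusted 1.00; exact permutation p = 0.0571, n = 4 per group), and it was 0.21 in the lower and 0.04 in the higher number series.

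Dnajb2, a neuronal J protein that delivers ubiquitinated clients to the proteasome, was at 9657, 9968, 9637 and 9750 in WT and at 9150, 9320, 8863 and 9209 in Slm2KO. Every Slm2KO library was below every WT library, by a small amount: the log2 difference was -0.09 (SE 0.043, 0.877 to 1.00-fold; unadjusted limma p = 0.051, adjusted 1.00; exact permutation p = 0.0286, n = 4 per group). It was -0.09 in the lower and -0.10 in the higher series. Dnajb2 also had the smallest spread within the groups of all chaperone genes, with an SD of 0.027 on the log2 scale. Dnajb4, a close relative of Dnajb1, was at 4520, 4531, 4515 and 4593 in WT and at 4657, 4956, 4668 and 4691 in Slm2KO. The groups did not overlap, but the log2 difference was 0.06 (SE 0.046; 0.09 and 0.04 by series; unadjusted limma p = 0.201, adjusted 1.00; exact permutation p = 0.0286).

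The DNAJC family is the largest and most varied, with 26 of 28 genes tested, 14 of them higher and 12 lower. Dnajc6, which encodes auxilin, the J protein that recruits HSC70 to clathrin-coated vesicles, was the highest and was at 34517 to 38029 in WT and 31079 to 37919 in Slm2KO (log2 difference -0.04, SE 0.069; 0.03 and -0.11 by series). Dnajc7, which binds both HSP70 and HSP90, differed by 0.03 (SE 0.048). The 5 genes listed under clathrin and the synaptic vesicle were Hspa8, Hspa12a, Dnajc5, Dnajc6 and Dnajc13, a loose grouping. Of these, 1 was higher (Dnajc13) and 4 were lower, all with intervals within 1.3-fold.

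Dnajc28, a J protein assigned to the mitochondrion, was at 2605, 2622, 2875 and 2840 in WT and at 3122, 3215, 2879 and 3000 in Slm2KO. The groups did not overlap, although Slm2KO 3 exceeded WT 3 only narrowly. The log2 difference was 0.16 (SE 0.060, 1.02 to 1.22-fold; unadjusted limma p = 0.0244, adjusted 1.00; exact permutation p = 0.0286), with 0.28 in the lower and 0.04 in the higher number series. Dnajc24, a partner in diphthamide synthesis, was at 1201 to 1415 in WT and 1129 to 1303 in Slm2KO (log2 difference -0.13, SE 0.077; -0.01 and -0.24 by series).

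Fkbp3, a nuclear FKBP also known as FKBP25, showed the smallest p of the chaperone genes. It was at 11690, 11376, 12398 and 12603 in WT and at 13402, 14120, 14537 and 14773 in Slm2KO. All 4 Slm2KO libraries were above all 4 WT libraries. Means were 12016 ± 579 and 14208 ± 601 (SD, n = 4). The log2 difference was 0.24 (SE 0.053, 1.09 to 1.28-fold), with an unadjusted limma p of 0.00108 and an adjusted p of 1.00 over all features. DESeq2 gave an adjusted p of 0.0768, the smallest of any chaperone gene. Within the lower and the higher number series the difference was 0.25 and 0.23, and leaving out each library in turn gave 0.22 to 0.27.

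Fkbp3 (chr12:65062432-65073948, minus strand) overlaps Prpf39, a splicing factor gene on the opposite strand, over 7.63% of its exon bases. The library kit does not mark strand, so reads there cannot be assigned to either gene. Prpf39 was at 2859, 3052, 3001 and 2968 in WT and at 3158, 3501, 3194 and 3188 in Slm2KO, also without overlap (log2 difference 0.13). The part of the shared bases in the Fkbp3 values was not tested.

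**Figure D3:**
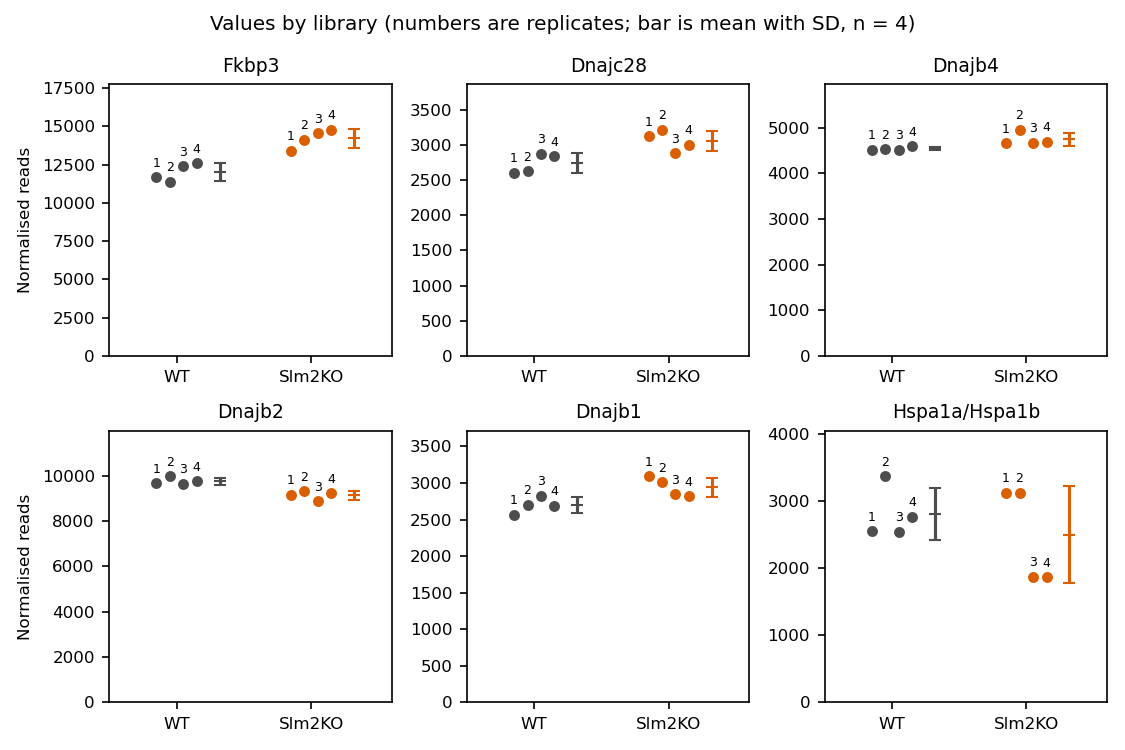
Normalised read counts in each library for Fkbp3, Dnajc28, Dnajb4, Dnajb2, Dnajb1 and Hspa1a/Hspa1b, with points numbered by replicate and bars for the mean and SD (n = 4 per group); axes start at 0. Fkbp3 lies at 11376 to 12603 in WT and 13402 to 14773 in Slm2KO.

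Of the 12 FKBP genes tested, 4 were higher and 8 lower in Slm2KO. Fkbp1a was at 91135 to 102603 in WT and 90051 to 105621 in Slm2KO (log2 difference 0.06, SE 0.066; 0.13 and -0.01 by series). Fkbp8, an anchor of BCL2 at the mitochondrial membrane, was at 27513 to 31004 in WT and 24473 to 29121 in Slm2KO (-0.08, SE 0.067; -0.03 and -0.13 by series), and the difference turned to 0.01 without WT 2 and Slm2KO 4. Fkbp2, an ER-lumen isomerase, was at 6094 to 7100 in WT and 5903 to 6623 in Slm2KO (-0.10, SE 0.066; -0.02 and -0.17 by series). Fkbp1b, the ryanodine receptor subunit FKBP12.6, was low in Slm2KO 4 at 2586 against 4011 to 4195 in the other 3 Slm2KO libraries, and at 2876 in WT 3 against 3491 to 4228 in the other WT libraries. Like Hsp90ab1, Fkbp1b was thus lowest in the libraries with the lowest neuron marker sums. These libraries also had the highest choroid plexus sums of their groups, and the part of either in the values was not tested.

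The small heat shock proteins varied most between libraries. Their median SD within groups was 0.426 on the log2 scale, and 5 of 6 exceeded 0.3, as did 30.9% of all features, against medians of 0.102 for all chaperone genes and 0.179 for all features tested. The spread is smaller at higher levels: the median over all features was 0.551 at means of 10 to 30 and 0.347 at 30 to 100, so that Hspb3 (mean 55.9, SD 0.335) was no more variable than features of its level, while Hspb2 (0.481) and Hspb7 (1.56) were above theirs. Among features with a mean of at least 1000, medians were 0.0939 for 65 chaperone genes and 0.0989 for all features. Hspb8, which with BAG3 directs clients to autophagy, had a mean of 4191 and an SD of 0.390. It and Hspa1a/Hspa1b were the 2 of those 65 with an SD over 0.3 (3.08%), against 3.54% of all features at that level. Hspb8 was at 4961, 2876, 5394 and 3870 in WT and at 4106, 2870, 4061 and 5387 in Slm2KO. WT 2 and Slm2KO 2 were lowest and WT 3 and Slm2KO 4 highest, and the groups differed by -0.05 (SE 0.218; -0.14 and 0.03 by series). Hspb6 (HSP20) was low and high in the same pairs of libraries, with 867, 487, 1065 and 787 in WT and 727, 546, 845 and 1146 in Slm2KO.

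**Figure D4:**
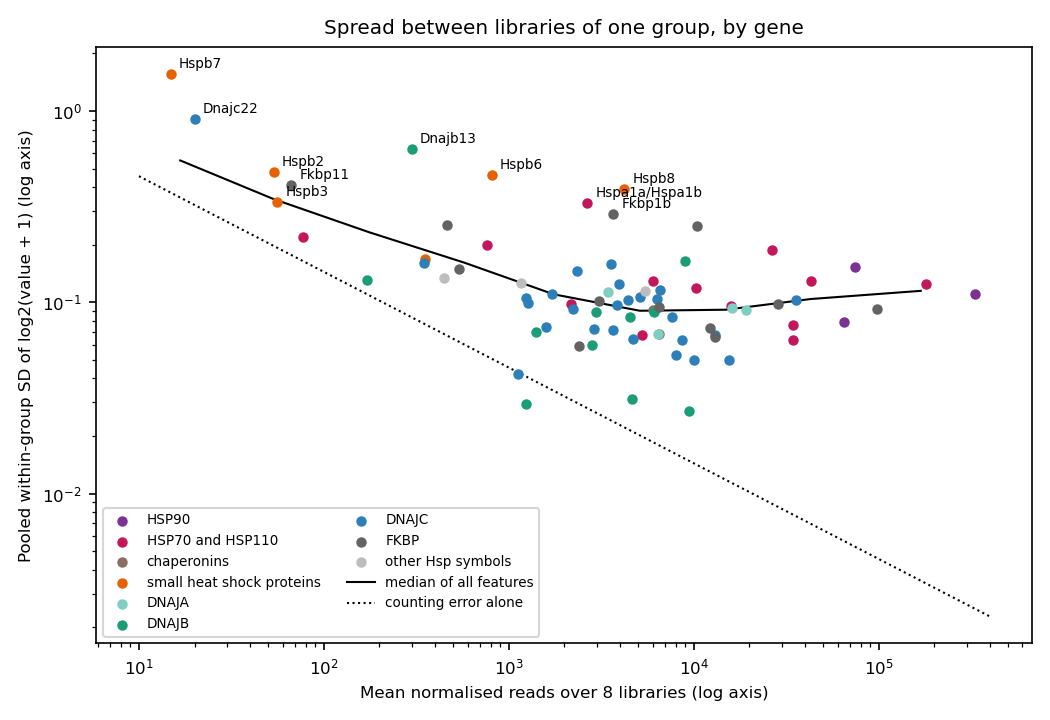
Spread between libraries (pooled within-group SD of log2(value + 1)) against mean normalised read count, both on log axes, for the 80 chaperone genes; the solid line is the median of all 25667 features tested by level, and the dotted line is counting error alone. Hspb8, with a mean of 4191 and an SD of 0.390, stands above the line.

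The same libraries were high and low for Ttr, the transthyretin gene of the choroid plexus, at 1519675, 219052, 1791307 and 794256 in WT and 844419, 376053, 830006 and 2262369 in Slm2KO. This relation was noticed in the data and then computed for the 10 most variable chaperone genes. Ttr and these genes were thus picked from the same libraries, so the p-values of these relations do not measure chance. The share of all features that follow Ttr as closely is not given here. Over the 8 libraries, r with log2 Ttr was 0.978 for Hspb8 (exact permutation p = 0.000174, adjusted over 10 relations 0.000868; rho 0.952, exact p = 0.00114, adjusted 0.0112) and 0.974 for Hspb6 (exact p = 9.92e-05, adjusted 0.000868; rho 0.929, exact p = 0.00223, adjusted 0.0112). Without WT 2 and Slm2KO 4, the libraries of lowest and highest Ttr, these were 0.997 and 0.940.

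Hspb2, Fkbp11, Dnajc22 and Dnajb13, all at lower levels, went the same way; Dnajc22 rests on few reads (3.62 to 29.4 in WT). For Hspb2 r was 0.881 (exact permutation p = 0.00461, adjusted 0.0127), for the ER gene Fkbp11 0.877 (0.00531, adjusted 0.0127), for Dnajc22 0.838 (0.00637, adjusted 0.0127) and for Dnajb13, a J protein of cilia, 0.838 (0.0132, adjusted 0.0221); rho was 0.881, 0.857, 0.786 and 0.881 (exact p = 0.00724, 0.0107, 0.0279 and 0.00724, adjusted 0.0181, 0.0214, 0.0349 and 0.0181). Without the 2 extreme libraries r was 0.892, 0.875, 0.626 and 0.922. The exons of Hspb2 overlap Cryab over 30.2%, and those of Dnajb13 overlap Ucp2 over 11.2%, both on the opposite strand. The library kit does not mark strand, so reads there cannot be assigned to either gene. Means were 13358 for Cryab against 53.5 for Hspb2, and 3339 for Ucp2 against 298 for Dnajb13. Within their groups, Cryab and Ucp2 were lowest in WT 2 and Slm2KO 2 and highest in WT 3 and Slm2KO 4. Ucp2 ranged from 1677 to 5007. The part of the shared bases in these relations was not tested. The 10 ependymal markers, from the ciliated cells of the ventricle wall, were all present, with sums of 9149 to 16921 in WT and 7316 to 18297 in Slm2KO.

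The other 4 were negative or unstable. Fkbp1b had r = -0.748 (exact permutation p = 0.0347, adjusted 0.0496; rho -0.714, exact p = 0.0576, adjusted 0.0640; r = -0.828 without the 2 libraries). Hspa1a/Hspa1b had r = -0.681 (p = 0.0619, adjusted 0.0773; rho -0.810, exact p = 0.0218, adjusted 0.0311), which dropped to -0.341 without them. Hspb3 had r = -0.629 (p = 0.0939, adjusted 0.104; rho -0.833, exact p = 0.0154, adjusted 0.0256; -0.672 without them). Hspb7 had r = -0.380 (p = 0.360, adjusted 0.360; rho -0.119, exact p = 0.793, adjusted 0.793), which rested on those libraries and turned to 0.535. The part of choroid plexus tissue in any of these values was not tested.

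**Figure D5:**
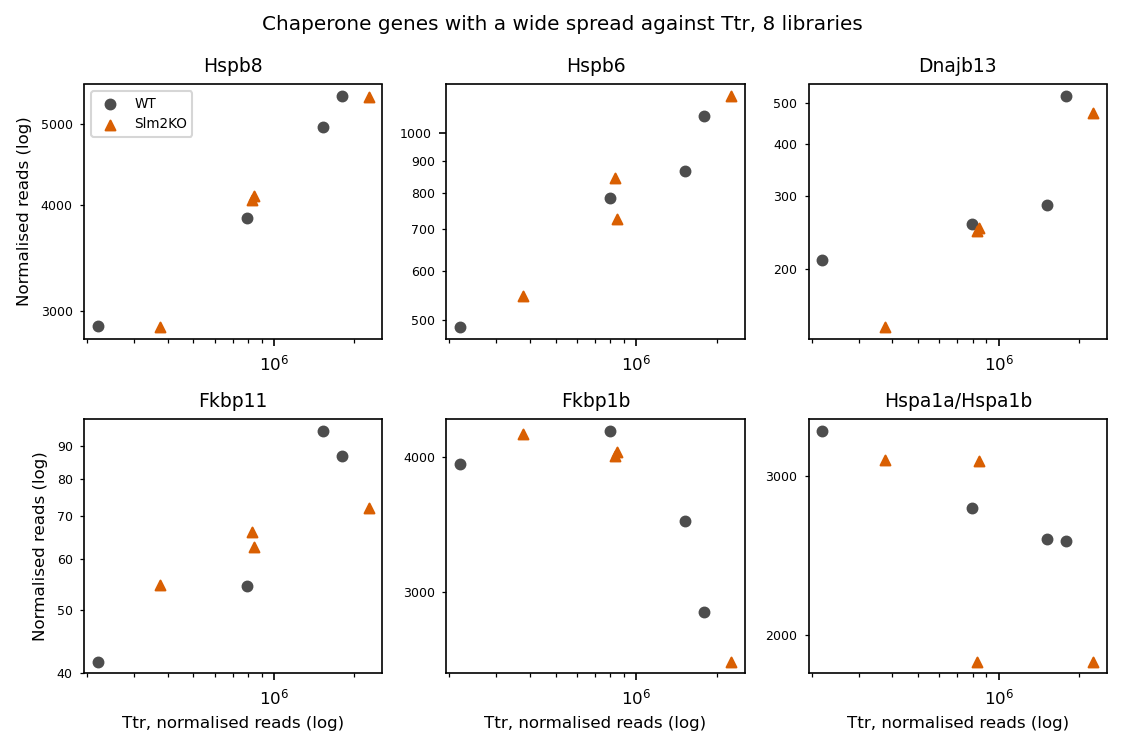
Normalised read count of chaperone genes against Ttr in each of the 8 libraries, both on log axes, with WT and Slm2KO points marked. Hspb8 and Hspb6 are higher where Ttr is higher (r = 0.978 and 0.974), with WT and Slm2KO libraries intermingled, and Fkbp1b is lower (r = -0.748).

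Of the remaining small heat shock genes, Hspb1 (HSP27) was at 384, 389, 409 and 305 in WT and 319, 370, 293 and 352 in Slm2KO (log2 difference -0.15, SE 0.122; -0.17 and -0.14 by series). Of its 50-base stretches 50.1% also occur in other genes, chiefly the pseudogene Hsp25-ps1. Hspb7 was near the detection limit, at 34.0, 19.9, 12.1 and 7.66 in WT and 22.2, 8.42, 14.5 and 0 in Slm2KO, so its fitted difference depends on the value added before taking logs. The 3 genes outside the families, Hspbp1 (a nucleotide exchange factor of HSP70), Hspb11 (an intraflagellar transport protein) and Hspbap1, differed by -0.04, 0.06 and 0.10.

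Genes that work with the chaperones but lie outside the symbol rule were read in the same fit, from lists drawn up with earlier results of these data known, and none passed the adjusted threshold. Among 6 heat shock factors, the transcription factors of the heat shock response, 4 were higher; Hsf2 was at 3046 to 3107 in WT and 3173 to 3398 in Slm2KO, without overlap (log2 difference 0.10, unadjusted limma p = 0.0668; exact permutation p = 0.0286). Of 22 HSP70 and HSP90 co-chaperones, 9 were higher, with Ptges3 (p23) at 0.11 (unadjusted limma p = 0.0484; exact permutation p = 0.0571). Of the 8 subunits of TRiC, the cytosolic chaperonin, 6 were higher, and Cct6a was at 28839 to 31592 in WT and 31716 to 32928 in Slm2KO (0.10). Of 17 genes of ER folding and the unfolded protein response 6 were higher, of 8 mitochondrial folding genes 2, and of 9 tested relatives, such as Cryab (-0.17), 5.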

How the data were processed

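RNA was measured by sequencing in 8 hippocampus libraries, 4 WT and 4 Slm2KO, grouped by the genotype in the labels. Per the labels' protocols, Trizol was used for extraction and a TruSeq kit, which does not mark strand, for the libraries. Each deposited signal value is the read count of a gene in a library as scaled by the authors; per the submitters' processing notes, DESeq, FastQC, Picard and SAMtools were used, without versions. The sources used here name no aligner or counter, and do not say how strand was handled. Although those notes name hg19, the file header states mm10, whose coordinates are used.

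Dividing each library by its smallest step gave whole reads for 100% of values (tolerance 0.001 read). The step of WT 1 (size factor 0.999) is too near 1 to be told from rounding. Depth, 104020058 to 125985224 reads, limits precision through counting error only for low genes.

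limma 3.58.1 (R 4.3.3) was fitted to log2(value + 1) with a trended prior for the 25667 features with a mean of at least 10. P-values were adjusted by the Benjamini-Hochberg method over all of these, with a threshold of 0.05. Single genes had a two-sided exact permutation test (70 assignments), and correlations were tested over all pairings of the 8 libraries. The pair Hspa1a and Hspa1b was not computed, since they are 1 feature. Spread is the SD of log2(value + 1) pooled within groups. Alternatives used edgeR 4.0.16 and DESeq2 1.42.0 on recovered reads, other pseudocounts, filters, scalings, priors, weights and covariates, a replicate block, and left-out libraries. Exon lengths, overlaps and shared 50-base stretches came from GENCODE vM21 and promoters from RefSeq. Tables and figures were made with Python 3.11.15, pandas 2.3.3 and matplotlib 3.10.9.

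The genes and lists were chosen with earlier results of these data known. Genes were named by rule: any past the threshold; in each family the 2 with the smallest p and the 2 with the highest mean; the 10 most variable; every gene whose groups do not overlap; 12 well-known stress genes; and, from lists outside, those past the threshold and the 1 with the smallest p. Other genes named were chosen after their values were seen.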

Additional observations from a re-analysis of the deposited data

Results flagged for a closer look

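In 5 of 78 groups of 4 libraries (6.41%) a library stood apart from the others by Dixon's criterion at 95%. For genes picked without regard to their values, chance gives about 1 in 20. The groups are those of the named genes, some of which were named for their spread or their separation, so that rate need not hold. In Slm2KO 2, Dnajb4 was high at 4956 (4657 to 4691 in the other Slm2KO libraries) and Hsph1 was high at 48018 (40418 to 41526). In Slm2KO 4, the library with the highest Ttr and the lowest sum of neuron markers (393547), Fkbp1b was low at 2586 (4011 to 4195) and Hspbp1 was low at 4583 (5535 to 5693). In WT 3, Hspb11, an intraflagellar transport gene, was high at 1356 (1062 to 1088).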

How the results depend on the processing

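No chaperone gene had an adjusted p under 0.05 under any alternative run, and the median log2 difference stayed between -0.02 and 0.01. Over all features the count called, 1 as reported, was 2 with a pseudocount of 10, 12 without a filter, 0 without limma's trend, 2 with Ttr as covariate and 9 with DESeq2, and 0 to 2 with each library left out in turn. Chaperone genes at an unadjusted p under 0.05, 3 as reported, numbered 6 without a filter (7.5%, and 3.30% of all features), 5 with Ttr as covariate (6.25%, and 5.17% of all features), 7 without WT 2 and Slm2KO 4 (the libraries of lowest and highest Ttr; 2 higher, 5 lower; 8.75%, and 6.31% of all features) and 1 to 4 with each library left out, the lowest without WT 2 or Slm2KO 1. Without WT 2 and Slm2KO 4, the difference of Fkbp8 turned to 0.0117 and that of Hspa1a/Hspa1b to 0.00775. Without the 2 libraries farthest from the median, r turned to -0.763 for Hsph1 and Dnajb1 and to 0.535 for Hspb7 and Ttr; the relations with Ttr were chosen after seeing the data. The cause was not tested. Of 856 values of 39 named genes under alternatives, 49 in 20 genes had another sign than reported; a change of sign was counted as a reversal only where the reported difference was at least its SE. Deviations from the group means correlated at 0.124, 0.323, -0.0654 and -0.122 between same-numbered WT and Slm2KO libraries. Between WT and Slm2KO libraries of different number the correlations were -0.322 to 0.317. They cannot decide whether the numbers pair the libraries, since paired libraries need not deviate together. With the replicate number as a block, 1 feature and 0 chaperone genes were called, and 2 chaperone genes (Fkbp3 and Hspa12b) had an unadjusted p under 0.05. Depth limits only the lowest genes: Hspb7, Dnajc22 and the 6 untested genes rest on few reads.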

Other observations

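Dnajb9, the ER stress-responsive J protein ERdj4, and Dnajc17, a spliceosome-linked J protein, varied between libraries no more than counting reads alone would give. Their SDs on the log2 scale were 0.0294 and 0.0420 against 0.0410 and 0.0431 from counting error. They were 2 of the 80 chaperone genes tested (2.5%), and 4.84% of all features tested were like this.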
